A study of Mus musculus with 12 samples.

Results

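The genes described here encode the heavy chains of major histocompatibility complex class I (MHC-I) molecules in primary mouse oligodendrocyte progenitor cells (OPCs), the proliferating cells that give rise to myelinating oligodendrocytes. They were chosen by symbol from the 55536 genes of the annotation. The 10 members are 2 classical genes, H2-K1 and H2-D1, and 8 non-classical genes, H2-Q4, H2-Q6, H2-Q7, H2-T10, H2-T22, H2-T23, H2-T24 and H2-M3. All 10 passed the filter on low counts and were among the 18995 genes tested.

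An MHC-I molecule is a heavy chain bound to the light chain beta-2-microglobulin, and it carries a short peptide from inside the cell to the surface, where CD8 T cells read it. Classical heavy chains are highly polymorphic and present most such peptides, whereas non-classical heavy chains are less variable, with narrower ligands and often with receptors on natural killer cells or unconventional T cells. Interferon-gamma (IFN-γ) induces MHC-I genes through factors that include IRF1 and the transactivator NLRC5. EZH2 is the enzyme of Polycomb repressive complex 2 that methylates histone H3 at lysine 27, a mark of silenced genes.

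OPCs were taken from brains of pups aged 4 to 6 days after birth and grown in proliferation medium. There were 4 groups of 3 libraries each: untreated cells (Ctr), cells given the EZH2 inhibitor EPZ011989 at 1.5 µM for 4 days with renewal every 48 hours (EZH2i), cells given IFN-γ at 100 ng/ml for 6 hours (IFNg), and cells given the inhibitor on that schedule and then IFN-γ with fresh inhibitor for 6 hours (IFNg_EZH2i). The labels call the cells of all groups Sox10-GFP positive, from a Sox10:Cre line that switches on an EGFP reporter in the oligodendrocyte lineage. The reporter animals came from a C57BL/6 by CD1 mixed background while the reads were counted against C57BL/6 sequence, so the H2 alleles of each litter were not known and their part in the values was not tested. Several brains were pooled for each experiment, replicates came from different litters, and cells were selected for Sox10-GFP by sorting or for CD140a with beads.

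Libraries held 17403893 to 66546052 counts, with a median of 33625908, and a level is given below as CPM, the share of a library's counts held by a gene after TMM scaling. The OPC markers Pdgfra, Cspg4, Sox10, Olig1 and Olig2 summed to between 4061 and 4580 CPM in Ctr and to between 2140 and 3330 CPM in the libraries with IFN-γ, where 2 of the 5 were called lower. Astrocyte markers (5 of 5 tested) summed to between 787 and 2040 CPM over the 4 groups, and mature oligodendrocyte markers (4 of 4 tested) to between 472 and 1025 CPM. Of 9 microglia and macrophage markers, whose cells carry abundant MHC-I, only 2 were tested, and the list summed to between 0.678 and 1.74 CPM in every library. The 3 lymphocyte markers were at 3 counts or fewer in every library, and the 3 dendritic cell markers summed to at most 1.43 CPM. Endothelial markers summed to between 8.26 and 35.4 CPM and those of pericytes and fibroblasts to between 0.957 and 3.78 CPM. The neuron list summed to between 34.7 and 85.4 CPM without IFN-γ and to between 685 and 1643 CPM with it, nearly all of it Tubb3, a neuronal tubulin. In bulk RNA, fewer cells of a type and less RNA per cell cannot be told apart.

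All 10 genes lie on chromosome 17 (GRCm38) in the H2 complex. H2-K1 stands apart at chr17:33996017-34000347 on the minus strand. H2-D1 (chr17:35262730-35267499), H2-Q4 (chr17:35379617-35385290), H2-Q6 (chr17:35424850-35430055) and H2-Q7 (chr17:35439155-35443773) follow on the plus strand. H2-T24 (chr17:36005695-36020560), H2-T23 (chr17:36029773-36032855), H2-T22 (chr17:36037128-36042747) and H2-T10 (chr17:36115876-36121465) lie on the minus strand, and H2-M3 is at chr17:37270220-37274484 on the plus strand. The annotation calls H2-T10 a polymorphic pseudogene and the other members protein-coding.

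The coding sequences fell into blocks of different likeness. H2-K1 and H2-D1 were 91.5% identical over aligned coding bases, and each was 88.2% to 90.6% identical to H2-Q4, H2-Q6 and H2-Q7. H2-Q6 and H2-Q7 were 95.4% identical to each other, and H2-T10 and H2-T22 were 96.9% identical. H2-T24 was the most divergent, at 64.6% to 69.8% identity to the other 9 members.

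The promoter windows below show the letters that these genes share and where they differ, because the changes with IFN-γ ranged over the members. Windows of 250 bases before to 50 bases after the RefSeq start (GRCm38.p6) were held for 8 of the 10 members, not for H2-T10 and H2-T24. Capitals mark matches to the κB type motif GGGGATTCC and to the IRF type motif GAANNGAAA, searched on both strands, and the matches to these motifs do not overlap. The windows are those of the classical H2-K1, of H2-Q4 and H2-T23, and of the close pair H2-Q6 and H2-Q7. H2-Q4 and H2-T23 rose most with IFN-γ among the members other than H2-Q6.
H2-K1, chr17:34000298-34000597, minus strand: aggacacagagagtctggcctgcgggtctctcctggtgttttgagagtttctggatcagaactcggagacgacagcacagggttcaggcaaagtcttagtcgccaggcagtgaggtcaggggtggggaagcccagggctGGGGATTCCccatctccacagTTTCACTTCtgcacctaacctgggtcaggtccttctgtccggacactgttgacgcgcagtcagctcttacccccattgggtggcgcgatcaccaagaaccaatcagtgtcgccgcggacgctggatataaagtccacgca
H2-Q4, chr17:35379367-35379666, plus strand: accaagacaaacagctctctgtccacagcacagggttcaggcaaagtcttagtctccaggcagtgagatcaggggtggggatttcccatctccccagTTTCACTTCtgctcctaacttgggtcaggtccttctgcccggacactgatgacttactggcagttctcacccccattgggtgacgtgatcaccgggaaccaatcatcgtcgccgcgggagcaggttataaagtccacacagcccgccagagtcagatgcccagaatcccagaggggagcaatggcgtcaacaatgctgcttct
H2-Q6, chr17:35424600-35424899, plus strand: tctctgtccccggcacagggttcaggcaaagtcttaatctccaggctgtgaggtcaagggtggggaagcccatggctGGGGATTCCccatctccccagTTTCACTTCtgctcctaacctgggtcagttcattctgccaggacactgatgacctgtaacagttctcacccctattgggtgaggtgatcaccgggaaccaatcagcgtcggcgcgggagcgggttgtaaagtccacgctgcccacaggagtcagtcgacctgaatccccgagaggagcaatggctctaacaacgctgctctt
H2-Q7, chr17:35438905-35439204, plus strand: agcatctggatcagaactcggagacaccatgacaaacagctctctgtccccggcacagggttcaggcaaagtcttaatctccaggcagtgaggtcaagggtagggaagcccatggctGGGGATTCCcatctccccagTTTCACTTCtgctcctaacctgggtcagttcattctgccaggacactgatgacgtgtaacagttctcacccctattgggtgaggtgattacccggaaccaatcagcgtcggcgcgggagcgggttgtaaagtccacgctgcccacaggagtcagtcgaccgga
H2-T23, chr17:36032652-36032951, minus strand: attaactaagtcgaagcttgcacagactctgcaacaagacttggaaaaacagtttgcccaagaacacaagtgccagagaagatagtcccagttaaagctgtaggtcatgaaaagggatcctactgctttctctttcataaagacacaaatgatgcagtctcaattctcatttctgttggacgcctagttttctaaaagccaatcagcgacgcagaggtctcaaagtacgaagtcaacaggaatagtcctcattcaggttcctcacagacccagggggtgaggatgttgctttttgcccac

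In the 5 H2-K, H2-D and H2-Q windows and in that of H2-M3, the IRF type match had the same 9 letters, TTTCACTTC on the coding strand. That motif was present in 6 of 8 member windows and in 7.52% of all 32851 promoter windows. The κB type letters preceded it in H2-K1, H2-D1 and H2-Q6 by 21 bases and in H2-Q7 by 20 bases, counted from start to start. The H2-Q4 window holds GGGGATTTCC, with an extra T, before its IRF type match, a form that was not searched. The exact κB type letters were in 4 of 8 member windows and in 0.25% of all windows. CCAAT, the core of the Y box, was in 8 of 8 and in 37.41%. No match to the searched letters GAANNGAAA or GGGGATTCC was in the windows of H2-T22 and H2-T23. The H2-T22 window holds TTTCACTTTC, the IRF type letters above with an extra T. The H2-T23 window holds TTTCTCTTTC, which has the same wider spacing. These wider forms were not searched, so the search cannot show that either window lacks an IRF type site. The RefSeq start of H2-T23 lies 154 bases inside the gene as GENCODE draws it, so its window covers less of the sequence before the GENCODE start. For H2-D1 the RefSeq start lies 364 bases inside, so its window holds none of the sequence before the GENCODE start.

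**Figure D1:**
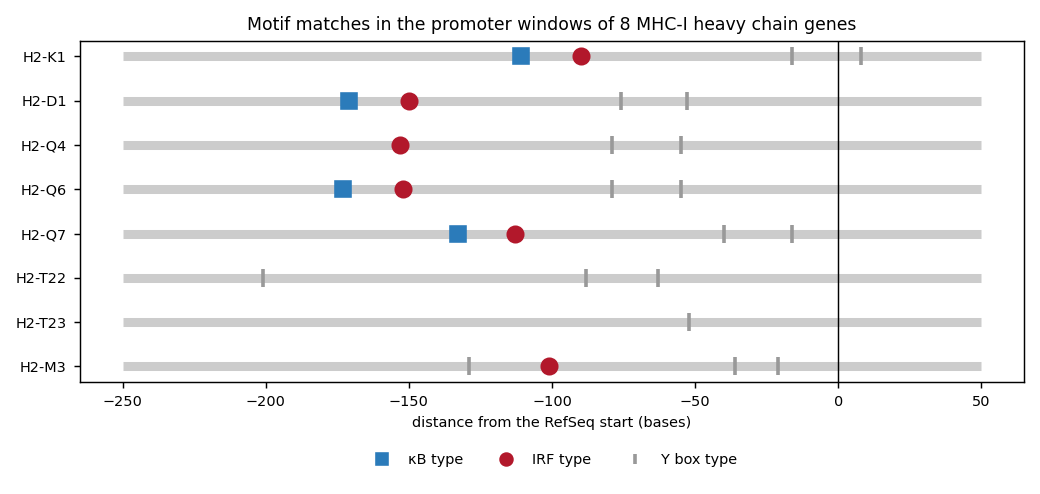
Promoter windows of 8 members from 250 bases before to 50 bases after the RefSeq start (x axis, bases from the start), with each motif match drawn at its first base. The κB type and IRF type matches stand 20 or 21 bases apart in H2-K1, H2-D1, H2-Q6 and H2-Q7. The windows of H2-T22 and H2-T23 hold no match to the letters searched, GGGGATTCC and GAANNGAAA.

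In untreated OPCs the 2 classical genes and H2-T22 made up most of the MHC-I heavy chain RNA. Compared per length, as TPM, which divides by transcript length and is summed over all transcripts of a gene, the mean in Ctr was 24.9 ± 5.76 TPM (SD, n = 3) for H2-K1, 7.26 ± 2.21 TPM for H2-D1 and 4.94 ± 2.25 TPM for H2-T22, whose product is recognised by gamma-delta T cells. The libraries of H2-D1 and H2-T22 overlapped, and those of H2-K1 lay above both, though not over protein-coding transcripts only, as given below. Each of the remaining 7 genes had a mean under 1 TPM, in the order H2-Q4 (0.974), H2-T24 (0.807), H2-Q7 (0.493), H2-T23 (0.373), H2-M3 (0.302), H2-T10 (0.164) and H2-Q6 (0.0117). In that order H2-Q4 overlapped H2-T24, and H2-Q7, H2-T23, H2-M3 and H2-T10 each overlapped the next, whereas H2-T24 lay above H2-Q7 and H2-T10 above H2-Q6.

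IFN-γ for 6 hours raised 9 of the 10 genes, both classical genes and 7 of the 8 non-classical ones, and the size ranged widely. H2-T23 rose 176-fold and H2-Q4 31.4-fold, while H2-K1, H2-D1, H2-T10, H2-T22 and H2-M3 each rose between 5.02-fold and 5.68-fold. Among all genes tested, 6.65% were called higher in this comparison (edgeR's quasi-likelihood test, Benjamini-Hochberg adjusted p under 0.05). The libraries of IFNg lay above those of Ctr without overlap for 10 of 10 members, against 13.5% of all genes. The median log2 fold change of the members was 2.49, also with H2-Q6 set at its bound, and that of all genes was 0.0010.

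H2-T23 encodes Qa-1, which presents leader peptides of classical heavy chains to CD94/NKG2 receptors. Its level was 0.355, 0.903 and 0.645 CPM in the Ctr libraries and 129, 97.7 and 98.1 CPM in the IFNg libraries. The log2 fold change was 7.46 (SE 0.30, adjusted p = 7.12e-09, edgeR). From 7th of 10 genes per length in Ctr it came to 2nd in IFNg, at 57.3 ± 8.58 TPM, where it overlapped H2-D1 at 53.8 ± 10.9 TPM and lay below H2-K1.

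H2-Q4, a non-classical gene of the Qa region, was at 2.02, 2.71 and 2.73 CPM in Ctr and at 89.1, 70.7 and 75.3 CPM in IFNg. Its log2 fold change was 4.97 (SE 0.20, adjusted p = 7.00e-09, edgeR). The groups were far apart, with the lowest IFNg library at 70.7 CPM and the highest Ctr library at 2.73 CPM. An antisense gene, Gm11131, overlaps 676 bases of H2-Q4. Its mean rose from 0.0678 to 2.11 CPM, so it stayed far below H2-Q4.

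The classical genes started from the highest counts of the family. In the edgeR fit on counts they moved less than H2-T23, H2-Q4, H2-Q6 and H2-Q7. That order was not tested between genes. With length-scaled TPM the rise of H2-D1 was larger than that of H2-Q7, while the rise of H2-K1 stayed smaller. Most counts of H2-Q7 lay on intron-retaining transcripts, as given below. The classical genes moved by about the same factor as H2-T22, H2-T10 and H2-M3. H2-K1 was at 22.3, 28.7 and 22.4 CPM in Ctr and at 137, 137 and 93.2 CPM in IFNg, a log2 fold change of 2.33 (SE 0.19, adjusted p = 5.49e-06, edgeR). H2-D1 was at 18.7, 18.1 and 20.2 CPM in Ctr and at 106, 115 and 93.6 CPM in IFNg, a log2 fold change of 2.47 (SE 0.15, adjusted p = 2.76e-07, edgeR). Replicate 3 was the lowest of the IFNg libraries for both genes.

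H2-T22 moved by nearly the same factor as the classical genes. It was at 10.9, 9.54 and 14.6 CPM in Ctr and at 67.9, 57.7 and 60.6 CPM in IFNg, a log2 fold change of 2.40 (SE 0.15, adjusted p = 5.20e-07, edgeR). Its near copy H2-T10 was counted far less, at 0.390, 0.452 and 0.458 CPM in Ctr and at 2.51, 2.21 and 2.13 CPM in IFNg, a log2 fold change of 2.38 (SE 0.27, adjusted p = 9.58e-05, edgeR). H2-M3, which presents formylated peptides of bacterial and mitochondrial origin, was at 0.567, 0.226 and 0.848 CPM in Ctr and at 2.95, 3.36 and 3.70 CPM in IFNg. Its log2 fold change was 2.51 (SE 0.36, adjusted p = 0.000606, edgeR).

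H2-Q7 and H2-Q6 are genes of the Qa-2 cluster, whose products include membrane-anchored and secreted forms. H2-Q7 was at 1.70, 2.15 and 1.29 CPM in Ctr and at 15.8, 13.7 and 9.24 CPM in IFNg, a log2 fold change of 2.94 (SE 0.30, adjusted p = 3.78e-05, edgeR). H2-Q6 had 0, 0 and 3 counts in the Ctr libraries and 42, 65 and 88 counts in the IFNg libraries. Against a floor of 3 counts in each Ctr library, its mean of 1.50 CPM in IFNg was at least 13.8-fold higher (adjusted p = 2.51e-05, edgeR).

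H2-T24 was the exception. Its level was 2.84, 2.43 and 2.12 CPM in Ctr and 6.10, 4.00 and 5.68 CPM in IFNg, so the groups did not overlap. The log2 fold change of 1.10 (SE 0.31, adjusted p = 0.0502, edgeR) did not pass the threshold. It passed with the replicate number as a block (adjusted p = 0.00217), a fit in which 10 of 10 members and 12.4% of all genes were called higher, with DESeq2 (adjusted p = 0.0102), with limma on log2(TPM + 1) (adjusted p = 0.0139), in a fit of only the 6 libraries (adjusted p = 0.0475) and without EZH2i replicate 2 (adjusted p = 0.0204). The whole of H2-T24 and H2-T23 lies within A930015D03Rik on the opposite strand. That gene had a mean of 1.87 CPM in Ctr and 2.32 CPM in IFNg, where it ranged from 0.268 to 4.98 CPM, and its part in the counts of H2-T24 was not tested.

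**Figure D2:**
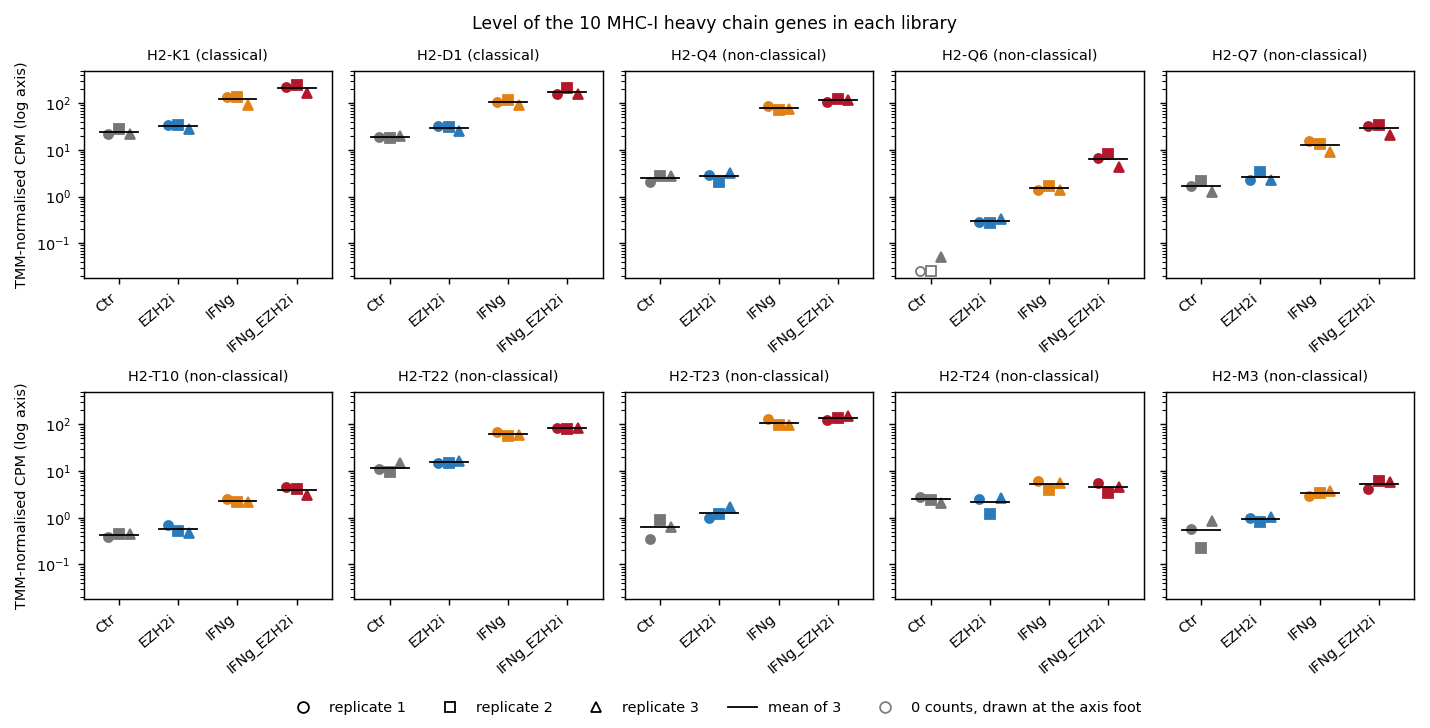
TMM-normalised CPM (log axis) of each of the 10 genes in the 12 libraries, by group, with a symbol for each replicate and a line at the mean of 3. H2-T23 and H2-Q4 make the widest step from the 2 groups without IFN-γ to the 2 groups with it, and H2-Q6 is at 0 counts in 2 Ctr libraries.

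In cells that had received EZH2i, the same 9 genes were called higher with IFN-γ, against 5.90% of all genes (IFNg_EZH2i versus EZH2i). Their libraries and those of H2-T24 did not overlap, against 11.8% of all genes. The members' median log2 fold change was 2.75 and that of all genes 0.0017. H2-T23 rose 104-fold, from 0.965, 1.23 and 1.68 CPM to 123, 137 and 155 CPM, and H2-Q4 rose 41.9-fold, from 2.86, 2.08 and 3.26 CPM to 106, 124 and 116 CPM. H2-Q6 rose 21.1-fold and H2-Q7 rose 10.9-fold. H2-K1, H2-D1, H2-T10, H2-T22 and H2-M3 rose between 5.35-fold and 6.93-fold. H2-T24 had a log2 fold change of 1.06 (SE 0.31, adjusted p = 0.0620, edgeR) and passed with DESeq2 (adjusted p = 0.0152) and with the replicate block (adjusted p = 0.00257), a fit that called 10 of 10 members and 11% of all genes higher.

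The unequal rises changed the make-up of the MHC-I heavy chain RNA. The classical genes held 82.4%, 84.4% and 73.0% of the summed TPM of the 10 members in Ctr and 82.8%, 79.3% and 74.97% in EZH2i. With IFN-γ they held 60.6%, 60.0% and 54.7% in IFNg and 68.2%, 63.7% and 57.7% in IFNg_EZH2i. Each library with IFN-γ had a lower classical share than each library without it, while the shares of IFNg and IFNg_EZH2i overlapped, as did those of Ctr and EZH2i. Within each replicate number the share was higher in IFNg_EZH2i than in IFNg, in 3 of 3, also on counts and on protein-coding transcripts. These shares are a description with no test.

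Both classes grew in amount. The summed TPM of the classical genes was 32.1 ± 5.74 (SD, n = 3) in Ctr and 185.0 ± 42.7 in IFNg, and that of the non-classical genes was 8.07 ± 2.84 and 129 ± 14.5. H2-T23 alone went from 0.892% ± 0.350 of the summed TPM in Ctr to 18.3% ± 0.891 in IFNg, and H2-Q4 from 1.76%, 2.37% and 3.01% to between 10.32% and 12.3%. H2-K1 went from 66.97%, 68.96% and 50.04% to 41.1% ± 5.68 and H2-T22 from 12.3% ± 5.13 to 9.32% ± 1.23, whereas H2-D1 was at 18.0% ± 4.31 and 17.3% ± 3.48.

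**Figure D3:**
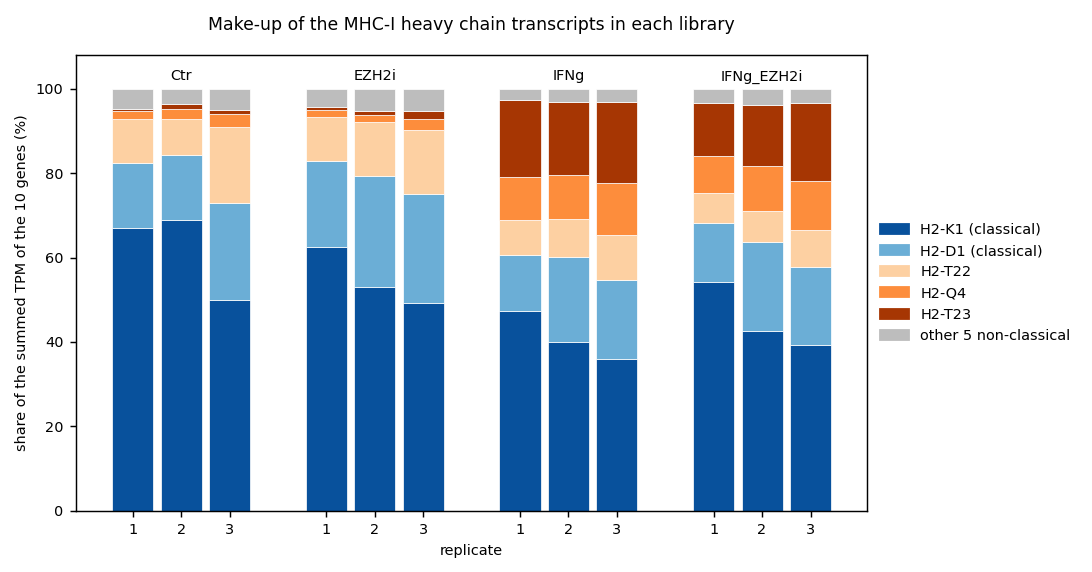
Share (percent) of the summed TPM of the 10 genes held by each gene in the 12 libraries. The 2 blue classical blocks fill 73.0% to 84.4% of the bars without IFN-γ and 54.7% to 68.2% of the bars with it, and H2-Q4 and H2-T23 take up most of the difference.

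The classical share depended on which transcripts were counted, because much of H2-K1 was assigned to transcripts annotated as retaining an intron, which do not encode the full heavy chain. Such transcripts held a median of 61.6% of the H2-K1 TPM in Ctr and 62.9% in IFNg. Of the H2-K1 counts they held 20.6% to 40.9% in Ctr and 30.2% to 43.96% in IFNg, ranges that overlap. The largest of them, H2-K1-215, had 94.1, 38.3 and 36.8 TPM in the IFNg libraries. Over protein-coding transcripts only, the mean of H2-K1 in Ctr was 9.79 ± 3.09 TPM, and its libraries overlapped those of H2-D1 at 6.79 ± 1.95 TPM. On the same transcripts the mean of H2-K1 in IFNg was 45.3 ± 14.6 TPM, beside 48.2 ± 10.26 TPM for H2-D1 and 43.9 ± 8.78 TPM for H2-T23. The mean classical share on that measure was 70.8% ± 5.86 in Ctr and 47.1% ± 5.10 in IFNg.

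H2-Q7 was mostly counted on intron-retaining transcripts. They held 87.1% to 87.9% of its counts in the IFNg libraries and 86.9% to 89.0% in IFNg_EZH2i, chiefly the transcript H2-Q7-206, against 66.9% to 92.2% in Ctr and 56.9% to 72.8% in EZH2i. H2-D1 had at most 4.45% of its counts on such transcripts in any library. H2-Q6, H2-T24 and H2-M3 have only protein-coding transcripts in the annotation. The libraries were made from total RNA after removal of ribosomal RNA, so unspliced RNA could enter the counts, and its part was not tested.

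**Figure D4:**
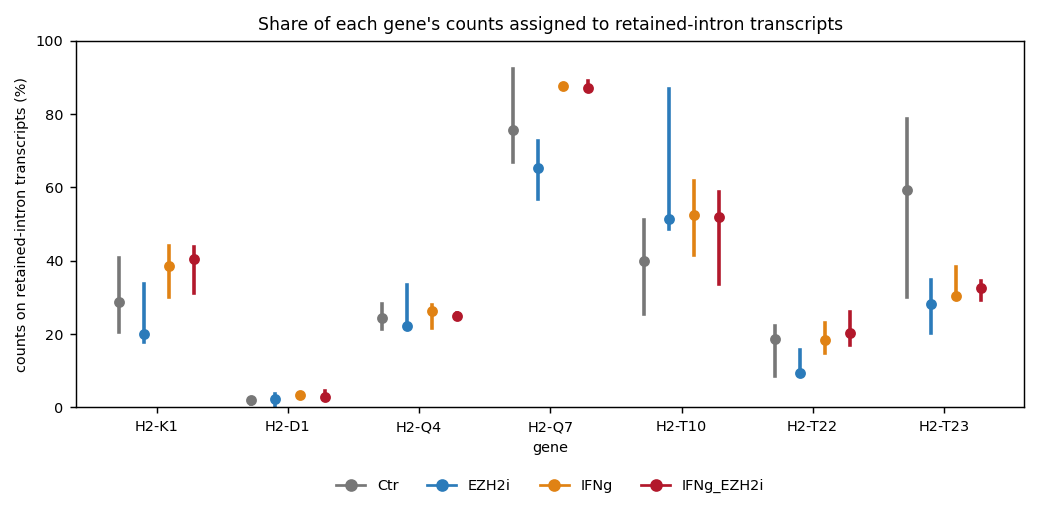
Percentage of each gene's counts assigned to transcripts annotated as retained intron (y axis), for the 7 members with such transcripts, with the median (point) and the range (line) of 3 libraries in each group. H2-Q7 lies near 87% in both groups with IFN-γ, and H2-D1 stays under 5%.

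The shared sequence limits how reads could be assigned between some members. Of all distinct stretches of 31 bases in a member's transcripts, 50.7% in H2-T10, 51.0% in H2-T22 and 50.3% in H2-Q6 also occurred in transcripts of another gene, against 22.8% in H2-K1, 24.4% in H2-T23 and 4.62% in H2-M3. Over 150 bases, the length of a sequenced read, the share was 5.99% in H2-Q6 and 5.90% in H2-Q7 and at most 1.35% in the other 8. The longer stretches of H2-Q6 were shared with H2-Q7, and those of H2-Q7 with H2-Q10, H2-Q6 and H2-Q5. Of the 31-base stretches of H2-Q6, 24.6% were shared with H2-Q4 and 18.4% with H2-Q7. The split of counts of H2-Q6 with H2-Q7 and H2-Q4, and that between H2-T10 and H2-T22, is therefore less certain than the other values. H2-Q4 had 2653 to 4878 counts in the IFNg libraries beside 42 to 88 for H2-Q6. Whether reads of H2-Q4 were counted in H2-Q6 was not tested. Gm7030 covers the whole of H2-T10 on the same strand and had at most 0.213 CPM in any library.

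EZH2i alone, in cells without IFN-γ, gave smaller differences than IFN-γ alone for each member. Of the 10 members, 9 had a positive log2 fold change, with a median of 0.51 beside 0.0060 for all genes, but only H2-Q6 was called higher, against 0.405% of all genes. DESeq2 on the same libraries called H2-D1, H2-Q6 and H2-T23 and 1.26% of all genes with an adjusted p higher. The libraries of EZH2i lay above those of Ctr without overlap for 6 of 10 members, against 7.37% of all genes.

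H2-Q6 had 8, 10 and 22 counts in the EZH2i libraries against 0, 0 and 3 in Ctr. At a mean of 0.298 CPM it was at least 2.74-fold higher than the floor of 3 counts in each Ctr library (adjusted p = 0.0407, edgeR). H2-Q6 entered this test through its counts in the libraries with IFN-γ. The filter on only the 6 Ctr and EZH2i libraries removed it, so those libraries alone give no test of it. The call held without IFNg_EZH2i replicate 3 (adjusted p = 0.0392) and was lost on leaving out any of the other 11 libraries, with adjusted p between 0.0585 and 0.15.

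H2-D1 was at 31.8, 30.6 and 26.0 CPM in EZH2i, above all 3 Ctr libraries, with a log2 fold change of 0.63 (SE 0.14, adjusted p = 0.101, edgeR, and 0.0156 with DESeq2). With the replicate number as a block in edgeR, the adjusted p was 0.00946 for H2-D1, 0.0576 for H2-K1 and 0.0591 for H2-T23. The numbers were not taken to pair these libraries, as given below. H2-T23 had a log2 fold change of 1.11 (SE 0.29, adjusted p = 0.186, edgeR), also without overlap. H2-K1 was at 33.5, 34.1 and 28.2 CPM, so that its lowest EZH2i library fell below the highest Ctr library at 28.7 CPM, with a log2 fold change of 0.39 (SE 0.19, adjusted p = 0.761, edgeR). H2-Q7, H2-T10, H2-T22 and H2-M3 had log2 fold changes between 0.37 and 0.68. H2-Q4, the gene that rose 31.4-fold with IFN-γ, had a log2 fold change of 0.14 (SE 0.19) with EZH2i, and H2-T24 had −0.20 (SE 0.31).

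In cells that received IFN-γ, H2-Q6 was again the only member called higher with EZH2i, against 0.347% of all genes. Its level was 1.41, 1.73 and 1.36 CPM in IFNg and 6.88, 8.05 and 4.32 CPM in IFNg_EZH2i, a log2 fold change of 2.10 (SE 0.35, adjusted p = 0.0347, edgeR). That call was lost without EZH2i replicate 1 or 2, any IFNg replicate, or IFNg_EZH2i replicate 1 or 2, with adjusted p between 0.0502 and 0.183. The members' median log2 fold change was 0.71, beside −0.0050 for all genes.

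Same-numbered libraries of these groups deviated together, so the fit with the replicate number as a block is given beside the first. It called H2-K1 (adjusted p = 0.00100), H2-D1 (0.00249), H2-Q4 (0.0353), H2-Q6 (0.00120) and H2-Q7 (0.000655) higher, 5 of 10 members against 3.11% of all genes. DESeq2 without the block called H2-K1, H2-D1, H2-Q6 and H2-Q7 and 1.03% of all genes with an adjusted p higher. The libraries did not overlap for 8 of 10 members, the exceptions being H2-T23 and H2-T24, against 6.08% of all genes.

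The ratio of IFNg_EZH2i to IFNg was taken within each replicate number. It was 1.59, 1.77 and 1.81 for H2-K1 in replicates 1, 2 and 3, and 1.52, 1.82 and 1.65 for H2-D1. It was 2.04, 2.47 and 2.21 for H2-Q7, and 4.89, 4.65 and 3.18 for H2-Q6. For H2-Q4 it was 1.20, 1.75 and 1.55. H2-T10, H2-T22 and H2-M3 had ratios from 1.23 to 1.84, all above 1, and did not pass in either fit. H2-T23, the strongest responder to IFN-γ, had ratios of 0.947, 1.40 and 1.58 and a log2 fold change of 0.35 (SE 0.21, adjusted p = 0.941, edgeR). H2-T24 had ratios of 0.890, 0.852 and 0.801, under 1 in 3 of 3, with a log2 fold change of −0.24 (SE 0.31, adjusted p = 0.999, edgeR).

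Whether the EZH2i difference itself changed with IFN-γ was tested as an interaction. It was called for 0 of 10 members and 0% of all genes by edgeR. At an unadjusted p under 0.05 that fit, with group as the only term, counted 0 members and 0.669% of all genes. No unadjusted count is given here for the fit with the replicate block, whose standard errors were smaller for each gene with both values below. The count of called members was also 0 with DESeq2, with limma and with the replicate block. With group as the only term, the difference between the log2 fold changes was 0.39 (SE 0.26) for H2-K1 and 0.10 (SE 0.20) for H2-D1. It was 0.42 (SE 0.25) for H2-Q4, 0.50 (SE 0.40) for H2-Q7 and −0.76 (SE 0.36) for H2-T23. With the replicate block it was 0.40 (SE 0.14), 0.12 (SE 0.15), 0.41 (SE 0.23), 0.49 (SE 0.22) and −0.82 (SE 0.35) in that order. For H2-Q6 it is undetermined, since Ctr was at the floor. A larger EZH2i effect in the presence of IFN-γ was thus not detected for any member at the adjusted threshold. These standard errors leave room for differences of the sizes given.

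**Figure D5:**
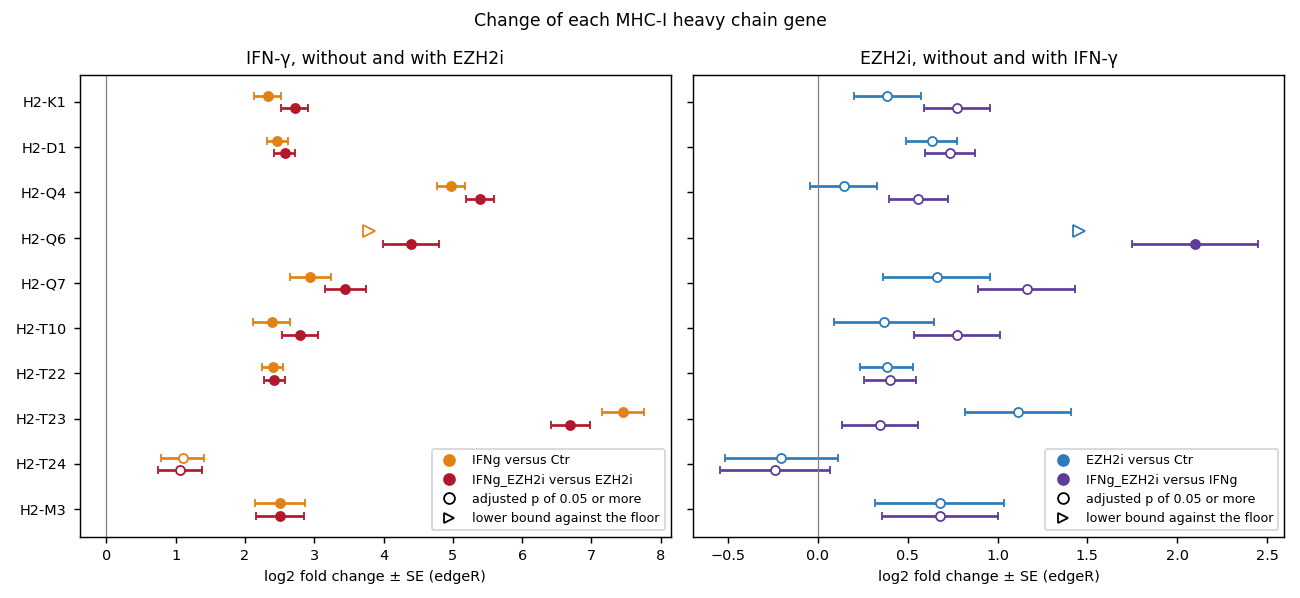
Log2 fold change with standard error (edgeR, 12 libraries) of each member with IFN-γ (left) and with EZH2i (right), filled where the adjusted p was under 0.05. With IFN-γ all values lie above 0 and H2-T23 reaches 7.46 and 6.69. With EZH2i only H2-Q6 is filled, and arrowheads mark lower bounds of H2-Q6 against the floor of 3 counts.

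The genes that supply peptide and the light chain to these heavy chains mostly moved with IFN-γ. Of 21 such partners and regulators, all tested, 15 were called higher in IFNg versus Ctr and 15 in IFNg_EZH2i versus EZH2i, and none lower. With EZH2i none was called by edgeR with group as the only term in cells without or with IFN-γ (3 and 0 at an unadjusted p under 0.05), while DESeq2 called 1, Tap1 (adjusted p = 0.00102), and 0. The mean of Tap1 was 21.1 CPM with EZH2i alone against 9.83 CPM in untreated cells, a log2 fold change of 1.10 (SE 0.22, adjusted p = 0.0602, edgeR). The list was chosen with results of these samples known, so its counts are no independent evidence of a direction.

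B2m, the light chain, had means of 30.0 CPM in Ctr, 26.3 in EZH2i, 323 in IFNg and 422 in IFNg_EZH2i, with a log2 fold change of 3.44 (adjusted p = 0.000192, edgeR) in IFNg versus Ctr, larger than the 2.33 of H2-K1 and the 2.47 of H2-D1 and smaller than the values of H2-Q4 and H2-T23. That order was not tested between genes. Tap1 and Tap2, the subunits of the peptide transporter, went from 9.83 to 619 CPM and from 7.80 to 308 CPM. Tapbp, or tapasin, went from 11.7 to 176 CPM, and the trimming peptidase Erap1 from 21.4 to 199 CPM. Among the regulators, Nlrc5 went from 1.74 to 755 CPM and Irf1 from 11.98 to 951 CPM. Rfx5, a subunit of the complex with which NLRC5 binds MHC-I promoters, was at 35.8 and 45.3 CPM and was not called (log2 fold change 0.34, adjusted p = 0.453, edgeR).

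Of 23 other heavy chain genes of the H2 complex, 19 were in the files, 10 of these had 3 counts or fewer in every library, and 5 were tested. H2-Q5 had means of 0.0565, 0.0441, 0.728 and 2.22 CPM in Ctr, EZH2i, IFNg and IFNg_EZH2i, and H2-Q10 had means of 0.0707, 0.291, 0.739 and 1.30 CPM. Both were called higher in IFNg versus Ctr (adjusted p = 0.00994 and 0.000803, edgeR) and in IFNg_EZH2i versus EZH2i. H2-T-ps was called in the latter only, a difference between the comparisons that was not tested. With EZH2i none of the 5 was called by edgeR in cells without IFN-γ (1 at an unadjusted p under 0.05, 0 by DESeq2) or with it (3 at an unadjusted p under 0.05), and DESeq2 called H2-Q5 in the latter (adjusted p = 0.0254). H2-Q5 and H2-Q10 share stretches with H2-Q6 and H2-Q7, so their low counts are also uncertain.

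The members also differed in how replicates ranked. Replicate 3 was the lowest of both the IFNg and the IFNg_EZH2i libraries for 5 of the 10 genes, H2-K1, H2-D1, H2-Q6, H2-Q7 and H2-T10. Replicate 2 was the lowest in both for H2-T22 and H2-T24, and replicate 1 was the lowest in IFNg_EZH2i for H2-Q4, H2-T23 and H2-M3. The coefficient of variation over 3 libraries of IFNg_EZH2i was 2.54% for H2-T22, 7.43% for H2-Q4 and 11.6% for H2-T23, against 25.4% for H2-Q7 and 29.7% for H2-Q6. Litters, libraries and numbers go together here and cannot be told apart.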

How the data were processed

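Total RNA of 12 libraries was sequenced as paired reads of 150 bases from a stranded kit. The authors quantified reads with Salmon 0.8.2 (per the labels, mouse GRCm38), and the deposited files give estimated counts and TPM for each of 141862 transcripts. The library type and the k-mer setting of Salmon are not given in the sources used here. Deposited tables of the authors' own DESeq2 comparisons hold fold changes and p-values and were not used.

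Transcripts were matched to GENCODE M21 (141862 of 141862) and their estimated counts and TPM were summed over 55536 genes. Summed counts were rounded and tested with edgeR 4.0.16 (R 4.3.3), quasi-likelihood, TMM factors, filterByExpr, group as the only term, all 12 libraries in one fit, Benjamini-Hochberg over 18995 genes. Standard errors are the log2 fold change over the root of the F statistic. The unit counts suited that test, and levels between genes were compared in TPM. The small RNA Rn7s1 takes a large and varying share of TPM, so TPM shares were taken within a library. DESeq2 1.42.0, limma 3.58.1 on log2(TPM + 1), other filters, length scaling and leaving out libraries were alternatives. Scripts for the tests were checked on simulated counts.

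The labels number the replicates 1 to 3 in each group. Deviations from the group means of same-numbered libraries correlated at 0.638 to 0.748 in IFNg_EZH2i versus IFNg, 0.605 to 0.686 in IFNg_EZH2i versus EZH2i and 0.105 to 0.652 in IFNg versus Ctr, so the numbers were taken to pair these. In EZH2i versus Ctr replicate 2 gave 0.0929, just under the minimum of 0.1 set here, so they were not. Replicates 1 and 3 gave 0.583 and 0.608 there, so the fit without a block may leave out a pairing. No 2 libraries of a group agreed within sampling noise (chi-square per gene of at least 31.3).

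The members and gene lists were chosen with earlier results of these data known. Named were the 10 members, 8 partners (1 other that the rule named is not reported here), and other heavy chain or MHC-I-like genes with a mean of at least 1 CPM in any group, and the 3 genes most correlated with H2-K1 and with H2-Q6. Overlapping genes, H2-Q5, H2-Q10, H2-T-ps and Tubb3 were named after their values were seen, where that rule did not name them. Depth sets the floor: a gene was taken as at the floor with 3 counts or fewer in every library of a group. Windows were read from RefSeq (GRCm38.p6), and coding identity came from global alignment in Biopython 1.88.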

Additional observations from a re-analysis of the deposited data

How the results depend on the processing

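The counts of called members with IFN-γ kept within 1.5 times under each alternative run, from 6 to 10 of 10 in both comparisons, and 6 came from the filter of 10 counts in every library, which leaves 7 members. The interaction was called for 0 members under each alternative. In EZH2i versus Ctr (1 called), DESeq2 called 3, the replicate block 2 (H2-D1, adjusted p = 0.00946, and H2-Q6) and the partner Tap1 (adjusted p = 0.00139), and the 10-count filter, length-scaled TPM, limma and a fit of only the 6 libraries 0, with 0 to 1 on leaving out a library. In IFNg_EZH2i versus IFNg (1 called), DESeq2 called 4, the replicate block 5, and the 10-count filter, length-scaled TPM and the 6-library fit 0, with 0 to 2 on leaving out a library. H2-Q6 is absent under the 10-count filter and, in EZH2i versus Ctr, from the 6-library fit, so neither could call it. Otherwise the cause was not tested. The mean classical share in Ctr, EZH2i, IFNg and IFNg_EZH2i was 68.5%, 70.2%, 45.3% and 49.8% of counts, and 70.8%, 71.7%, 47.1% and 52.1% of TPM of protein-coding transcripts, against 80.0%, 79.0%, 58.5% and 63.2% of all TPM, so it fell with IFN-γ on each measure. Signs turned for H2-T24 in EZH2i versus Ctr with limma (0.031) and without EZH2i replicate 2 (0.078, with a lowest leave-one-out value of −0.39), for H2-Q4 there without EZH2i replicate 3 (−0.020, highest 0.30), and for the interaction of H2-D1 with length-scaled TPM (−0.085), limma (−0.44) and without IFNg_EZH2i replicate 2 (−0.049, highest 0.18). Over all genes, calls with EZH2i rose from 77 to 657 higher in EZH2i versus Ctr and from 66 to 591 in IFNg_EZH2i versus IFNg with the replicate block, and to 285 and 240 with DESeq2. They were 121 with no filter in EZH2i versus Ctr, and 29 and 11 with the 10-count filter, 49 and 34 with length-scaled TPM, 37 and 15 with limma and 33 and 7 with the 6 libraries. The block gave 2360 against 1264 in IFNg versus Ctr and 2084 against 1120 in IFNg_EZH2i versus EZH2i, where limma gave 634. In EZH2i versus Ctr the numbers were not taken to pair the libraries because 1 correlation, 0.0929, missed the minimum of 0.1, although they were in the 3 comparisons that link the same groups. With limma the median log2 fold change of all genes moved to 0.18 in EZH2i versus Ctr, 0.11 in IFNg versus Ctr, −0.13 in IFNg_EZH2i versus EZH2i and −0.29 in the interaction. The block changed no other call of a member than those given. Members under 1 CPM rest on few counts, and small differences were not detectable for them at this depth.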

Other observations

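Of 7 MHC-I-like genes outside the H2 complex, 5 were tested and none was called by edgeR in any of the 4 comparisons (0, 0, 0 and 1 at an unadjusted p under 0.05 in EZH2i versus Ctr, IFNg versus Ctr, IFNg_EZH2i versus IFNg and IFNg_EZH2i versus EZH2i) or by DESeq2. In contrast, the replicate block called Cd1d1, which presents lipids to natural killer T cells, in both comparisons with IFN-γ (adjusted p = 0.00456 and 0.00362) and Hfe, a regulator of iron uptake, in IFNg_EZH2i versus EZH2i (adjusted p = 0.00449). Means in Ctr, EZH2i, IFNg and IFNg_EZH2i were 2.66, 2.71, 4.71 and 4.88 CPM for Cd1d1 and 3.05, 3.63, 4.27 and 6.30 CPM for Hfe. Mr1, which presents vitamin B metabolites, was at 2.17, 2.02, 1.91 and 2.60 CPM, and Fcgrt, the neonatal Fc receptor, at 1.18, 1.79, 1.04 and 1.62 CPM.

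Among 14681 genes with a mean of at least 1 CPM, the genes whose log2 levels over the 12 libraries were most like those of H2-K1 were H2-Q7 (Pearson r = 0.995), Fst (0.995) and Ptpn13 (0.994), and those most like H2-Q6 were Steap2 (0.977), Stom (0.972) and H2-Q7 (0.969). The 12 points share 4 treatments and 3 litter numbers, and H2-K1, H2-Q6 and H2-Q7 share sequence, so these values describe the order only.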
